A study of Mus musculus with 12 samples.

Results

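The 7 genes described here, Prg2, Prg3, Epx, Ear1, Ear2, Ear6 and Il5ra, encode proteins of eosinophil granules and a receptor of the eosinophil lineage. They were taken by symbol from the 2 count tables of the series, which hold 24538 genes each, and all 7 were found in both. The set was built around Prg2, whose difference between genotypes in LSK cells was already known, so the set was chosen by its LSK values, and these are given as a description without a test. The MPP libraries served for the tests. The groups were Tet2 knockout (KO), Tet2 mutant (Mut) and wild-type (WT) mice, all of a mixed 129/C57/B6 background and 10 weeks of age. From each genotype the marrow of 2 mice was pooled, LSK and MPP cells were sorted from the pool, and 2 technical replicate libraries were made of each population, which gave 6 groups and 12 libraries. LSK cells are the lineage-negative, Sca-1-positive, Kit-positive marrow fraction that holds the blood stem cells. MPP is the label of the second population, whose titles read Lin. The labels do not give the changed residues of the Mut allele, the design of the KO allele or the MPP gates. Because both libraries of a group came from a single pool, the p values below measure the spread between libraries and not between mice.

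Eosinophils are granulocytes that store a crystalline core of major basic protein, surrounded by a peroxidase and by small cationic ribonucleases, in large granules. The transcripts of these granule proteins are made early, in committed eosinophil progenitors and promyelocytes of the marrow, and are much lower in the mature blood cell. Interleukin 5 drives the expansion of the lineage, and the alpha chain of its receptor marks the committed progenitor. In mice the ribonucleases form the Ear (eosinophil-associated ribonuclease) family, a cluster of recently duplicated genes.

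Prg2 (chromosome 2, 84980461 to 84983632 of GRCm38, plus strand) encodes major basic protein, and Prg3 (chromosome 2, 84988215 to 84993886, plus strand), its next-door paralog, encodes a second form of that protein. Epx (chromosome 11, 87864000 to 87875536, minus strand) encodes eosinophil peroxidase. Ear1 (43818765 to 43875517, minus strand), Ear2 (44102654 to 44103534, plus strand) and Ear6 (51853699 to 51854643, plus strand) lie on chromosome 14. Il5ra (chromosome 6, 106710357 to 106749037, minus strand) encodes the interleukin 5 receptor alpha chain. A RefSeq upstream window was found for 6 of the 7 genes, all but Prg2. The 250 bases before the start of Epx (chr11:87875537-87875786, minus strand) and Prg3 (chr2:84987965-84988214, plus strand) are shown because these genes, with Prg2, carry most of the granule counts. Capitals mark the letters GATA or, on the other strand, TATC.
Epx: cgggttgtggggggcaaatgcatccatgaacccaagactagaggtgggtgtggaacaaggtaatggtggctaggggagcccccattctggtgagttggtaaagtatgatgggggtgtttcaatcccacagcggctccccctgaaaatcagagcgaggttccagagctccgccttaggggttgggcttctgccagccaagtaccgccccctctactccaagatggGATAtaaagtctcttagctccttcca
Prg3: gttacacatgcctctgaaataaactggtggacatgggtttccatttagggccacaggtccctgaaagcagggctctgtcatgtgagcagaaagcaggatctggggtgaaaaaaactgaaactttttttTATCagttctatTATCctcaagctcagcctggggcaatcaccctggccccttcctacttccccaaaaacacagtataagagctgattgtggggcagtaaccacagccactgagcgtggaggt
GATA was found on either strand in all 6 windows, and in 53.6% of 32817 windows of the same length over all genes. The 6 are not independent, since the Ear1, Ear2 and Ear6 windows were 77.3% to 97.6% identical. Their single hits lay 26, 24 and 27 bases from the window end. The last 69 bases of the Ear6 window, with its hit, are annotated as exon. The longer AGATAA, which contains GATA, was found in 1 of the 6 (Il5ra) and in 9.99% of all windows. TTGCNNAA was found in 2 of the 6 (Ear1 and Ear2) and in 9.57% of all windows, and AGGAAG in 3 of the 6 (Prg3, Ear1 and Ear2) and in 29.5%. Each was searched on both strands. These matches describe the letters of the windows and show no binding.

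The windows of Ear1 (chr14:43819640-43819889, minus strand) and Ear2 (chr14:44102404-44102653, plus strand) are shown because the pair differed widely in level, as given below. They were identical in 97.6% of 252 aligned positions. Of the 6 differing positions, 2 were substitutions, and the others came from the shifted ends of the windows. The Ear1 window lies before the RefSeq start, inside the longer gene span given above, which reaches to another annotated transcript start. Capitals mark the bases that differ.
Ear1: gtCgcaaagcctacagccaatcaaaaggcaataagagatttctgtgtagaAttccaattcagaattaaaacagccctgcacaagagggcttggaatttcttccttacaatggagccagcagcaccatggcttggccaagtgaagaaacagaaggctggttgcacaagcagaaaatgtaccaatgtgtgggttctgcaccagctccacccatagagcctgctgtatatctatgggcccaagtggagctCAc
Ear2: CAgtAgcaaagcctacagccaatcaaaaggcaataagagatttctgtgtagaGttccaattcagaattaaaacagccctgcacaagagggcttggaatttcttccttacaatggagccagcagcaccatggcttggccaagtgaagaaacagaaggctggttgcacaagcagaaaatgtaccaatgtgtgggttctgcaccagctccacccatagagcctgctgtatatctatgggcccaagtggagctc
The annotated transcripts of Ear1 and Ear2 were 96.0% identical over their length, those of Ear1 and Ear6 88.5%, and those of Prg2 and Prg3 54.3%. The reads were 150 bases long. No stretch of 150 bases in an Ear1, Ear6, Prg2, Prg3 or Epx transcript occurred in another of these genes or in another annotated Ear gene that was compared, while 6.32% of such stretches in Ear2 occurred in Ear10. How the deposited counting treated reads with several matches is not given in the sources used here, so the split of counts among the Ear genes is uncertain.

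The libraries held 9181027 to 23532847 gene counts. CPM are gene counts scaled to library size, with TMM factors over the 12 libraries. By counting error alone, a count of 0 allows up to 0.135 to 0.317 CPM. Tet2 stood at 29.2 and 31.7 CPM in LSK KO, 43.4 and 44.4 in LSK Mut and 87.3 and 62.7 in LSK WT. In the libraries labelled MPP KO it stood at 34.9 CPM in each, in MPP Mut at 40.2 and 37.4, and in MPP WT at 39.6 and 29.4, so it did not separate the labels in MPP. The counts are per gene and not per exon, so a shortened transcript would still be counted. The LSK WT libraries stood apart, with 12470 and 12614 genes detected against 13333 to 14264 in the other libraries. Of 8 stem and progenitor markers, Kit, Cd34, Flt3, Ly6a, Procr, Hlf and Mecom were higher in every LSK group than in the MPP groups. Slamf1 was not, averaging 5.07 CPM in LSK KO, 4.07 in LSK Mut and 35.0 in LSK WT, and 8.25, 4.36 and 4.02 CPM in MPP KO, Mut and WT. Flt3, for example, averaged 735 to 1096 CPM in the LSK groups and 88.8 to 117 CPM in the MPP groups. ERCC spike-ins made up 0.0822% to 0.229% of counts in LSK and 3.16% to 5.15% in MPP libraries.

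Prg2 was an abundant transcript of the MPP cells and nearly absent from LSK WT cells. It stood at 4932 and 4527 CPM in MPP KO, 3330 and 3027 CPM in MPP Mut and 6921 and 7726 CPM in MPP WT. In LSK it stood at 144 and 137 CPM in KO (2610 and 1913 counts), 6.94 and 10.0 CPM in Mut (124 and 186 counts) and 0 and 0.159 CPM in WT (0 and 2 counts). By CPM the 6 groups therefore ranked MPP WT, MPP KO, MPP Mut, LSK KO, LSK Mut and LSK WT. No neighbours in this order overlapped. In pooled cells, fewer cells of a type and less RNA per cell cannot be told apart.

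Epx followed the same order as far as it was detected. It stood at 1053 and 992 CPM in MPP KO, 604 and 607 CPM in MPP Mut and 1483 and 1561 CPM in MPP WT. In LSK KO it stood at 30.1 and 28.9 CPM (544 and 403 counts), and in the 4 LSK Mut and LSK WT libraries it had no count. The LSK KO level was at least 358-fold that of LSK Mut and at least 214-fold that of LSK WT, with 3 counts over the group taken as the floor.

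Prg3 stood at 332 and 283 CPM in MPP KO, 166 and 203 CPM in MPP Mut and 320 and 365 CPM in MPP WT, where KO and WT overlapped. In LSK KO it stood at 7.68 and 3.66 CPM (139 and 51 counts), a spread between libraries wider, relative to its mean, than that of Prg2 or Epx, in LSK Mut at 0 and 0.486 CPM (0 and 9 counts) and in LSK WT at 0. LSK KO was 23.95-fold over LSK Mut by counts (95% interval 12.4 to 53.2, counting error only). LSK KO was at least 42.9-fold over LSK WT on the same floor, which covers counting error only.

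The ribonucleases ranked differently in MPP cells, where KO and not WT was highest. Ear1 stood at 263 and 264 CPM in MPP KO, 109 and 111 CPM in MPP Mut and 177 CPM in each MPP WT library, and no 2 groups overlapped. In LSK it stood at 15.2 and 19.8 CPM in KO (275 and 276 counts) and at 0 in Mut. LSK WT held 7.39 CPM in replicate 1 (70 counts) and 0 in replicate 2, so a single library carried the WT level. Ear6 stood at 14.4 and 17.9 CPM in MPP KO, 4.32 and 5.13 CPM in MPP Mut and 10.9 and 13.01 CPM in MPP WT. In LSK it was found in the KO libraries, with 19 and 12 counts, and had no count in Mut or WT. Ear2 stood at 4.78 and 6.24 CPM in MPP KO, 1.21 and 1.64 CPM in MPP Mut and 5.13 and 3.70 CPM in MPP WT, where KO and WT overlapped. It had 6 and 7 counts in LSK KO and none in LSK Mut or WT.

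Il5ra was the least certain of the set. It stood at 4.71 and 5.77 CPM in MPP KO, 2.52 and 5.20 CPM in MPP Mut and 16.7 and 2.70 CPM in MPP WT (251 and 27 counts), so that the MPP groups overlapped. In LSK it had 18 counts in KO replicate 1 and none in the other 5 libraries. Il5, the cytokine it binds, had no count in any of the 12 libraries.

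**Figure D1:**
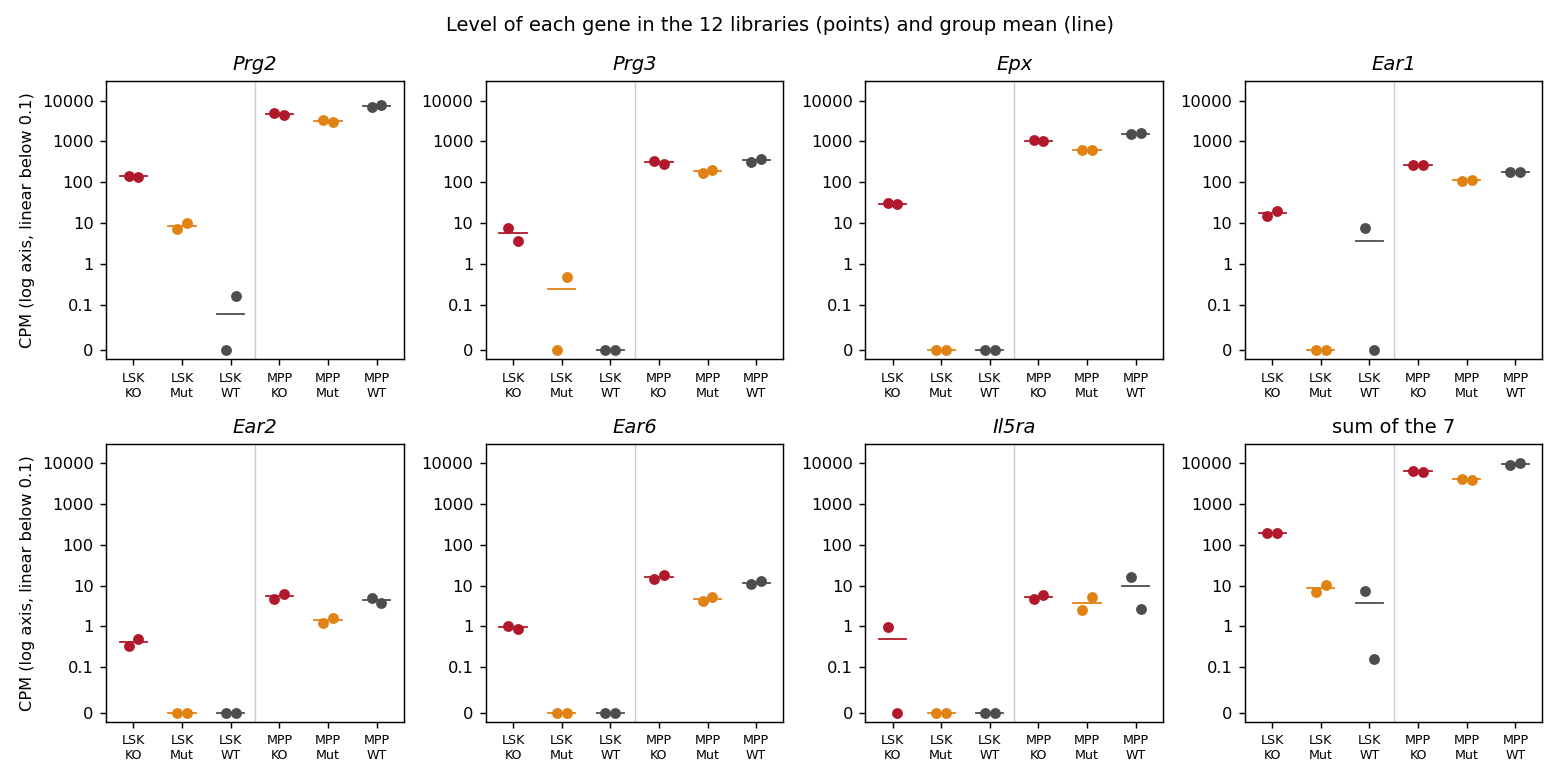
Level in CPM of each of the 7 genes and of their sum (vertical axis, logarithmic above 0.1 and linear below) in the 12 libraries (points), with group means as lines and groups by population and genotype along the horizontal axis. In LSK the KO libraries hold Prg2 at 144 and 137 CPM, above Mut at 6.94 and 10.0 and WT at 0 and 0.159, while in MPP the WT libraries are highest for Prg2 and Epx and the KO libraries for Ear1.

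Per kilobase of exon, Prg2 was the highest of the set in 5 of the 6 groups, and Ear1 in LSK WT. In MPP KO the levels were 5644 ± 342 CPM per kilobase for Prg2, 374 ± 15.9 for Epx, 361 ± 0.760 for Ear1, 324 ± 36.7 for Prg3, 17.1 ± 2.57 for Ear6, 7.67 ± 1.43 for Ear2 and 1.47 ± 0.210 for Il5ra (SD, n = 2). In MPP WT Epx, at 556 ± 20.1, stood above Ear1, at 243 ± 0.247. In LSK KO the order of that pair was turned, with Ear1 at 23.98 ± 4.48 CPM per kilobase and Epx at 10.8 ± 0.287. Ear1 and Ear2 thus stood at 361 and 7.67 CPM per kilobase in MPP KO. In counts, Ear1 exceeded Ear2 by 48.0-fold in MPP KO (interval 40.7 to 57.0), 79.2-fold in MPP Mut (60.2 to 106) and 38.8-fold in MPP WT (32.3 to 47.2).

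The proportions of the genes to one another were compared next, because a ratio of 2 counts in a library does not depend on how that library is scaled. Prg2 and Epx kept a similar proportion wherever both were found. Prg2 had 4.80 and 4.75 counts per Epx count in LSK KO, 4.68 and 4.56 in MPP KO, 5.51 and 4.99 in MPP Mut and 4.67 and 4.95 in MPP WT. The interval of LSK KO replicate 1 was 4.37 to 5.27, so the LSK KO ratio could not be told from that of MPP KO or MPP WT at this depth, while MPP Mut replicate 1 (5.41 to 5.61) lay above them. LSK Mut had 310 Prg2 counts and no Epx count. By counting error alone, a count of 0 there allows Epx a share of up to 0.968% of the pair (floor of 3 counts), against 15.9% in MPP Mut. Libraries of 1 pool varied by more than counting error, as Ear1 did in LSK WT with 70 and 0 counts, so the limit may be higher. The 9 Prg3 counts of LSK Mut made up 2.82% of its 319 counts of the set (exact interval 1.30% to 5.29%), against 4.41% in MPP Mut.

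Ear1 did not keep its proportion. Prg2 had 9.49 and 6.93 counts per Ear1 count in LSK KO, 18.7 and 17.2 in MPP KO, 30.5 and 27.2 in MPP Mut and 39.1 and 43.7 in MPP WT. The libraries of these 4 groups did not overlap, and their counting intervals were apart. The intervals of the 2 libraries within each group were apart too, as in LSK KO (8.38 to 10.8 and 6.11 to 7.89). Epx to Ear1 ran in the same order, at 1.98 and 1.46 in LSK KO, 3.99 and 3.77 in MPP KO, 5.54 and 5.46 in MPP Mut and 8.37 and 8.82 in MPP WT. No test of these ratios was made. As a share of the 7 genes' counts, Ear1 made up 8.78% in LSK KO, 4.15% in MPP KO, 2.67% in MPP Mut and 1.90% in MPP WT. Within the family, Ear6 and Ear2 were at 2.93 to 1 in MPP KO, 3.35 to 1 in MPP Mut and 2.57 to 1 in MPP WT, with overlapping intervals. The Prg2 to Prg3 ratio was 18.8 and 37.5 in LSK KO, a spread between libraries of 1 pool beyond their counting intervals (15.8 to 22.4 and 28.4 to 50.6). In MPP Mut it was 20.0 and 14.9, with intervals also apart (19.4 to 20.7 and 14.4 to 15.5).

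**Figure D2:**
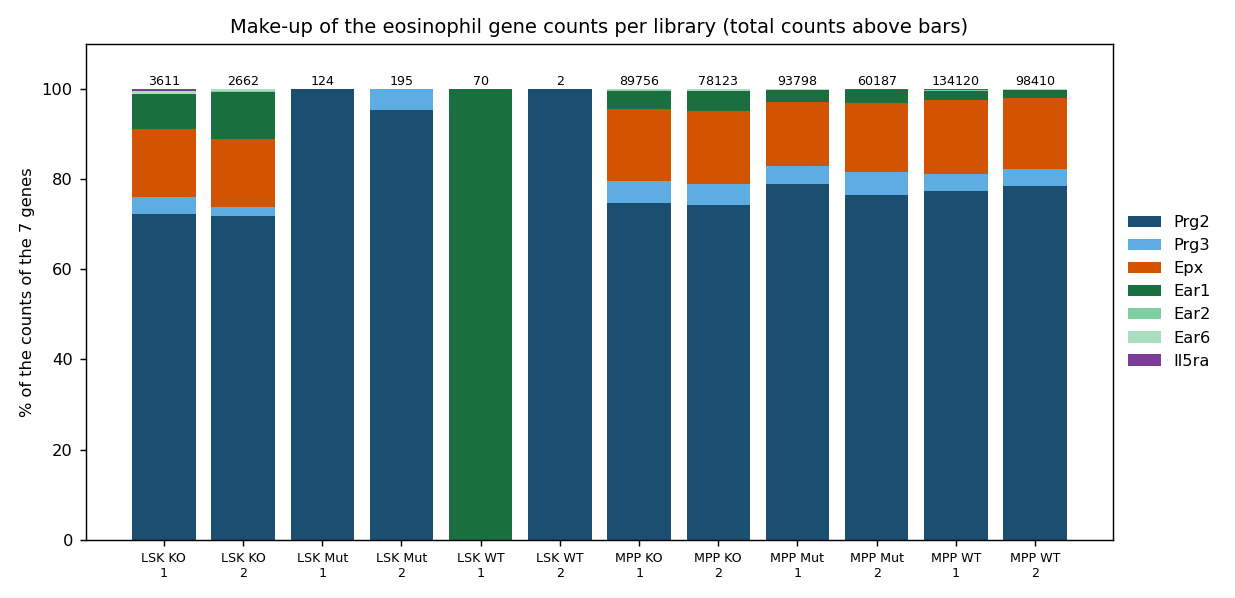
Share of each gene (colours) in the summed counts of the 7 genes (vertical axis, percent) in each library (bars), with the summed count above the bar. LSK KO has the MPP make-up with a thicker Ear1 band, LSK Mut is Prg2 with a little Prg3 in replicate 2, and the 70 counts of LSK WT replicate 1 are all Ear1.

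**Figure D3:**
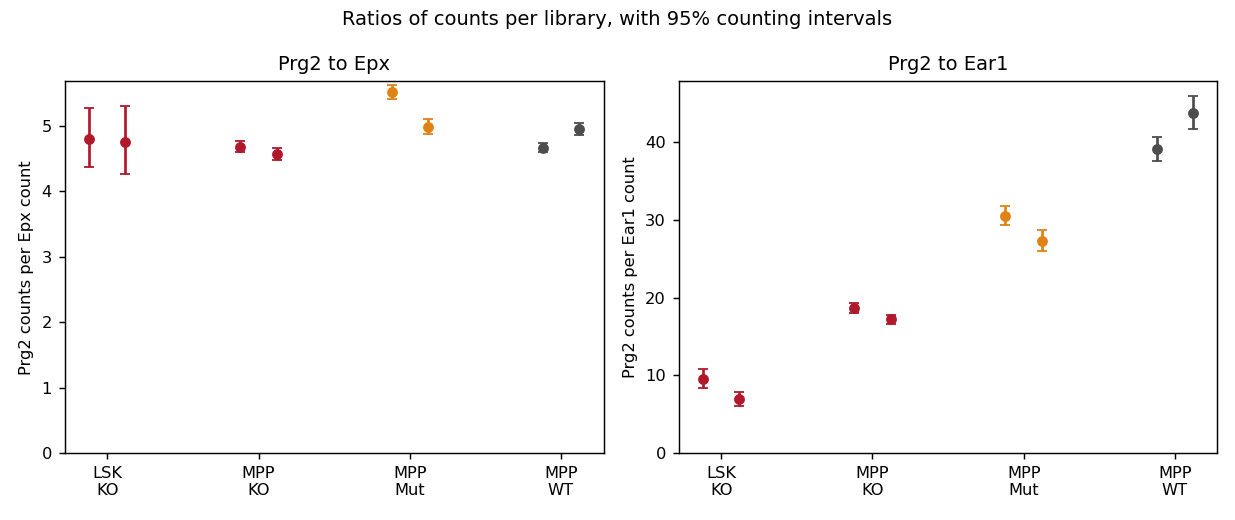
Prg2 counts per Epx count (left) and per Ear1 count (right) in each library of the 4 groups in which all 3 genes were counted (points, with exact 95% counting intervals as bars). The Epx ratio lies between 4.56 and 5.51 in all 8 libraries, while the Ear1 ratio is 6.93 to 9.49 in LSK KO, 17.2 to 18.7 in MPP KO, 27.2 to 30.5 in MPP Mut and 39.1 to 43.7 in MPP WT.

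Summed over the 7 genes, LSK KO held 199.5 and 191.2 CPM, LSK Mut 6.94 and 10.5 CPM and LSK WT 7.39 and 0.159 CPM. The ratio of means was 5.68 on the log2 scale for LSK KO over WT, 4.48 for KO over Mut and 1.20 for Mut over WT, on the scale of the LSK libraries. The WT sum was 70 Ear1 counts and 2 Prg2 counts. Without LSK WT replicate 1 the KO over WT ratio was 10.2 and the Mut over WT ratio 5.75, and without replicate 2 they were 4.71 and 0.23. In MPP the sum was 6605 and 6094 CPM in KO, 4218 and 3960 CPM in Mut and 8934 and 9848 CPM in WT. The LSK sum was thus 3.08% of the MPP sum in KO, 0.214% in Mut and 0.0402% in WT. These percentages, and others of LSK to MPP below, depend on the TMM scale over the 12 libraries. Spike-ins made up 0.160% and 0.147% of counts in LSK KO and 3.45% and 3.18% in MPP KO. Spike-in scaling, which would bring the LSK levels much nearer to MPP, was not applied between the populations.

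Markers of other cells were set beside these LSK levels. Among the mature eosinophil markers, the lipoxygenase Alox15 was at 10.4 and 15.6 CPM in LSK KO, 0 and 1.78 in LSK Mut and 0 and 0.239 in LSK WT. The chemokine receptor Ccr3 had 39 and 5 counts in LSK KO and none in LSK Mut or LSK WT. The lectin Siglecf did not go with them, at 9.45 and 22.7 CPM in LSK KO, 25.9 and 27.0 in LSK Mut and 38.7 and 1.12 in LSK WT. The 3 measured eosinophil markers of the list summed to 22.04 to 38.6 CPM in LSK KO, 25.9 to 28.7 in LSK Mut and 1.36 to 38.7 in LSK WT. The 5 basophil and mast cell markers summed to 104 to 144 CPM in LSK KO, 177 to 178 in LSK Mut and 103 to 171 in LSK WT, and the 4 neutrophil markers to 29.4 to 34.4, 43.3 to 46.6 and 78.9 to 154 CPM in the same groups. Of the neutrophil markers, Ly6g and Ltf had 8 and 45 counts over LSK KO, 15 and 148 over LSK Mut and none in LSK WT. The 3 T cell markers summed to 6.39 to 8.01 CPM in LSK KO, 4.93 to 5.24 in LSK Mut and 0.319 to 1.06 in LSK WT, in the order of Prg2 and without overlap. Cd4 made up most of this, with 218, 152 and 13 counts over the LSK KO, Mut and WT libraries, while Cd3e had 16 counts in LSK KO and none in LSK Mut or LSK WT. The 3 red cell markers, with both globin genes at 0, summed to 0.718 to 1.88 CPM in LSK KO, 2.49 to 3.70 in LSK Mut and 0 to 20.2 in LSK WT. The B cell and macrophage lists overlapped between all 3 LSK groups. In MPP KO, Mut and WT the eosinophil list averaged 320, 207 and 126 CPM and the basophil and mast cell list 5206, 12038 and 8391. The neutrophil list averaged 2117, 1015 and 1984 CPM there, and the red cell list 176, 125 and 66.5. The macrophage list averaged 158, 163 and 137 CPM, the T cell list 14.6, 13.1 and 18.6 and the B cell list 6.35, 5.66 and 4.62. The part of these other cells in the LSK or MPP values was not tested.

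On the TMM scale over the 12 libraries, other myeloid genes stood at widely differing LSK levels relative to MPP. In KO, the LSK mean was 2.98% of the MPP mean for Prg2, 2.88% for Epx and 6.64% for Ear1. It was 5.32% for Alox15, 12.9% for Mpo (myeloperoxidase), 2.04% for Elane (neutrophil elastase), 0.811% for S100a8 and 1.56% for Mcpt8, a basophil protease. For Prss34, another basophil protease, it was 0.00537%, with 6 and 0 counts in LSK KO against 43678 and 37875 in MPP KO. Prg2 had 1.53 counts per Prss34 count in each MPP KO library and 754 over both LSK KO libraries. In Mut it was otherwise, with 0.396 and 0.635 Prg2 counts per Prss34 count in LSK (313 and 293 Prss34 counts) and 0.446 and 0.426 in MPP. Of the other basophil genes, Mcpt8 and Fcer1a did not go with Prss34. Mcpt8 in LSK was at 1.56% of its MPP level in KO, 0.876% in Mut and 0.631% in WT, and Fcer1a at 2.61%, 1.86% and 6.99%. Cd200r3, also of the basophil list, was nearly absent from LSK KO as Prss34 was, with 2 and 0 counts against 597 and 414 in MPP KO. In Mut it had 16 and 0 counts in LSK and 1936 and 1321 in MPP. Ms4a2, Cpa3 and Hdc, also of that list, did not go with Prss34 either. Ms4a2 averaged 5.78 CPM in LSK KO, 4.52 in LSK Mut and 0.0399 in LSK WT, with KO and Mut overlapping. In MPP KO it averaged 95.5 CPM. Cpa3 averaged 89.7 CPM in LSK KO and 347 in MPP KO, and Hdc 18.3 and 314. LSK WT had no count of Prss34, Cd200r3 or Epx.

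**Figure D4:**
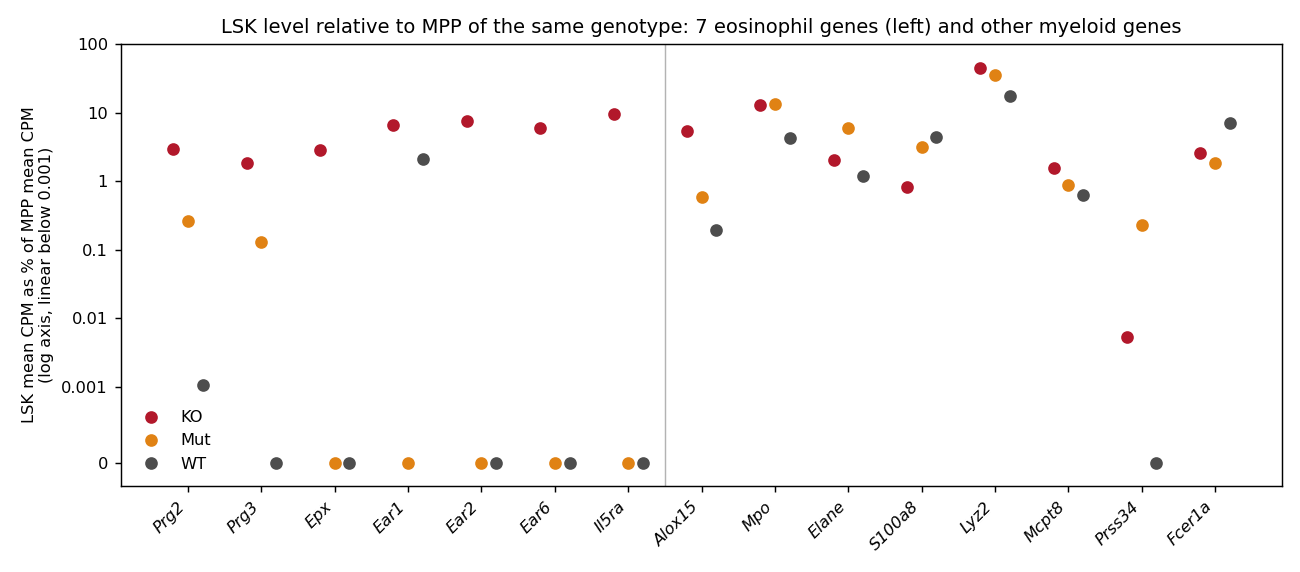
Mean level in LSK as a percentage of the mean level in MPP of the same genotype (vertical axis, logarithmic above 0.001% and linear below) for the 7 eosinophil genes and 8 other myeloid genes (horizontal axis), each point 1 genotype. Levels are CPM on the TMM scale over the 12 libraries, on which the percentages depend. Prg2 and Epx lie near 3% in KO and at or below 0.267% in Mut and WT, while Prss34 lies at 0.00537% in KO and 0.229% in Mut.

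In LSK as a whole, KO against WT gave 6 called genes of 13170 (0.0456%) at an adjusted p below 0.05. Mut against WT gave 168 (1.28%), and KO against Mut gave 8 (0.0607%). Of the 7 genes, 5 passed the filter on low counts there, all but Ear2 and Il5ra. Epx, Prg3, Ear1 and Ear6 passed only through the KO libraries, while Prg2 also had 124 and 186 counts in the Mut libraries. On the list of primary neutrophil granule genes, Mpo was higher in KO than in WT (edgeR, 2.44-fold, adjusted p = 0.00244). Mpo, Elane and Nkg7, which is on that list but encodes a cytotoxic granule protein, were higher in Mut than in WT (edgeR, 2.81-fold, 3.09-fold and 1.66-fold, adjusted p = 0.00022, 0.0241 and 0.0476). The Mpo call for Mut held under each of the 13 alternatives. That for KO was lost without either LSK KO library, and those of Elane and Nkg7 without any 1 of the LSK KO and LSK Mut libraries.

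The MPP libraries were tested with edgeR's quasi-likelihood method over all genes. They came from the same pools of mice as the LSK libraries. All 7 genes passed the filter on low counts. For KO against WT, Prg2 and Epx fell. Prg2 averaged 4729 ± 287 CPM in the libraries labelled MPP KO and 7324 ± 569 CPM in MPP WT (SD, n = 2), a log2 difference of -0.63 (SE 0.0647, adjusted p = 0.00932). Epx averaged 1023 ± 43.5 CPM in MPP KO and 1522 ± 55.0 CPM in MPP WT, a log2 difference of -0.58 (SE 0.0637, adjusted p = 0.0117). Of the 7 genes 2 were called, with 47 of 12947 genes (0.363%) called in the comparison, 28 of them higher and 19 lower. In 4 of the 7 the libraries of the groups did not overlap, as in 40.3% of all genes, and the median was -0.16 against -0.01 over all genes. Ear1 lay the other way, at 264 ± 0.555 CPM in MPP KO and 177 ± 0.180 CPM in MPP WT, with a log2 difference of 0.57 (SE 0.114) that was not called (adjusted p = 0.142) and passed with DESeq2 (adjusted p = 0.00146). Ear6 (0.43, SE 0.446), Ear2 (0.31, SE 0.850), Prg3 (-0.16, SE 0.139) and Il5ra (-0.90, SE 0.899) were not called. The Prg2 and Epx calls were both lost without MPP KO replicate 2 (adjusted p = 0.0656 and 0.11) and under spike-in scaling (0.156 and 0.243), and that of Epx also without MPP KO replicate 1 (0.0623) or MPP WT replicate 2 (0.059).

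For Mut against WT, Prg2 and Epx fell further. Prg2 averaged 3178 ± 214 CPM in MPP Mut and 7324 ± 569 CPM in MPP WT, and was 2.31-fold lower in Mut (log2 -1.21, SE 0.0653, adjusted p = 0.000346). Epx averaged 606 ± 2.14 CPM in MPP Mut and 1522 ± 55.0 CPM in MPP WT, and was 2.52-fold lower in Mut (log2 -1.33, SE 0.0646, adjusted p = 0.000283). All 7 log2 differences were below 0, with a median of -1.33 against -0.00 over all genes, and 29 of 12947 genes (0.224%) were called. In 6 of the 7 the libraries did not overlap, as in 39.3% of all genes. The other 5 missed the threshold with edgeR, Prg3 at -0.89 (adjusted p = 0.0743), Ear1 at -0.69 (adjusted p = 0.0904), Ear6 at -1.34, Ear2 at -1.63 and Il5ra at -1.34. Both calls held under each of the 13 alternatives.

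For KO against Mut, Prg2, Epx and Ear1 were higher in KO. Prg2 was 1.49-fold higher (log2 0.57, SE 0.0647, adjusted p = 0.0132), Epx 1.69-fold (log2 0.75, SE 0.0639, adjusted p = 0.00306) and Ear1 2.39-fold (log2 1.26, SE 0.116, adjusted p = 0.00468). All 7 log2 differences were above 0, up to 1.94 for Ear2 (SE 0.882, adjusted p = 0.549) and 1.77 for Ear6 (SE 0.459, adjusted p = 0.278), with a median of 0.75 against 0 over all genes, and 31 of 12947 genes (0.239%) were called. In 6 of the 7 the libraries did not overlap, as in 40.2% of all genes. The Epx call held under each of the 13 alternatives. That of Prg2 was lost without MPP KO replicate 1 (adjusted p = 0.0755) or MPP Mut replicate 2 (0.0773), and that of Ear1 without either MPP KO library (0.0718 and 0.0593) or MPP Mut replicate 1 (0.0541). The comparisons with WT share the WT libraries, and those with KO or Mut share these, so the 3 results are not independent.

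**Figure D5:**
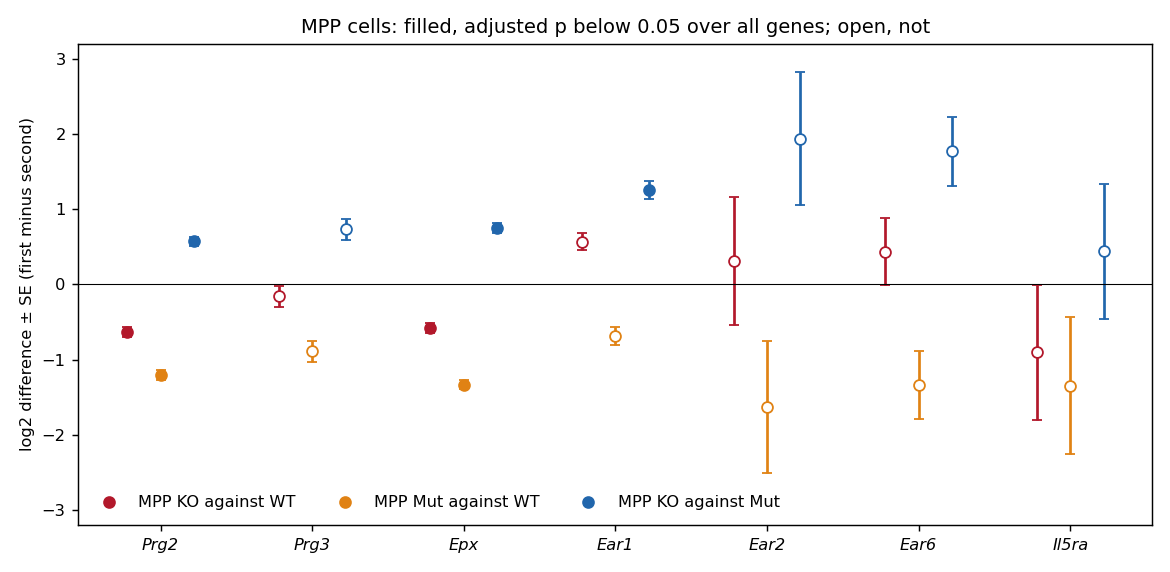
Fitted log2 difference in MPP cells (vertical axis, first group minus second, bars are ± SE) of the 7 genes (horizontal axis) for KO against WT, Mut against WT and KO against Mut. Filled points have an adjusted p below 0.05 over all genes. Prg2 and Epx are below 0 for KO and Mut against WT, Ear1 lies at 0.57 for KO against WT, and all 7 genes are above 0 for KO against Mut.

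Other genes of the eosinophil lineage were counted by list in MPP cells, in the order KO over WT, Mut over WT and KO over Mut. Of all genes, 8.47%, 9.75% and 9.48% had an unadjusted p below 0.05, and DESeq2 called 273, 306 and 273. Of 18 surface and effector genes found by symbol, 16 were tested, and edgeR called 1 in each comparison, 6, 5 and 5 had an unadjusted p below 0.05, and DESeq2 called 2, 3 and 3. Alox15, which oxidises arachidonic acid, was higher in KO (245 ± 5.58 CPM, against 61.8 ± 5.52 CPM in WT), by 3.94-fold (adjusted p = 0.00269). It was also higher in Mut (153 ± 25.4 CPM), by 2.47-fold over WT (adjusted p = 0.021), opposite in direction to Prg2 and Epx in both comparisons. The KO call held under each of the 13 alternatives. The Mut call held in 7 of them and was lost without either MPP KO library, MPP Mut replicate 2 or MPP WT replicate 2 (highest adjusted p 0.145). The other call in this list was Csf2rb2, a mouse beta chain of the interleukin 3 receptor with a near-identical neighbour in Csf2rb, which was 3.23-fold lower in KO (25.0 ± 1.003 CPM) than in Mut (80.9 ± 2.5 CPM, adjusted p = 0.0449), a call lost without any 1 of these 4 libraries. Of the other ribonucleases, Ear3, Ear4, Ear7, Ear12 and Ear14 had no count in any library. Ear10 had 38 and 39 counts in MPP KO, 25 and 18 in MPP Mut and 1 in each MPP WT library, and none in LSK. Ear10 shares sequence with Ear2 as given above.

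Factors that specify the lineage were counted in the same way. Of 15 lineage transcription factors tested in MPP, among them Gata1, Gata2, Cebpa, Cebpe and Spi1, edgeR called 0 in each of the 3 comparisons. It called 0.363%, 0.224% and 0.239% of all genes, so 0 of 15 is near that share. At an unadjusted p below 0.05 there were 5, 4 and 2 of the 15, against 8.47%, 9.75% and 9.48% of all genes. DESeq2 called 1 lower in each comparison. Cebpe, which granulocytes need for granule maturation, averaged 61.8 ± 4.47 CPM in MPP KO, 48.4 ± 0.423 in MPP Mut and 92.1 ± 2.67 in MPP WT. In LSK it had 114 and 25 counts in KO, 85 and 79 in Mut and 2 and 1 in WT. Of 15 tested genes of granule packing and cargo, edgeR called 0 in each comparison as well, again near the share of all genes. Here 2, 3 and 1 of the 15 had an unadjusted p below 0.05 in the same comparisons, and DESeq2 called 2, 1 and 0 of them, all lower. Srgn, the proteoglycan that packs cationic granule proteins, was at 1762 ± 34.0 CPM in MPP KO, 1857 ± 74.4 in MPP Mut and 2266 ± 187 in MPP WT.

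Basophil and neutrophil granule genes gave the neighbouring lineages. Of 10 basophil and mast cell genes tested, Mcpt8, Prss34 and Fcer1a, a chain of the IgE receptor, were lower in KO than in WT (1.49-fold, 1.69-fold and 1.75-fold) and higher in Mut than in WT (1.52-fold, 1.40-fold and 1.67-fold, edgeR adjusted p = 0.00182 to 0.0307 over these 6 values). In KO against Mut 5 were lower, led by Prss34 (2.36-fold, adjusted p = 6.52e-05) and with Cpa3 and Ms4a2, whose calls were lost without any 1 of the 4 libraries compared. The Prss34 calls for KO held under each of the 13 alternatives. With spike-in scaling the difference of Prss34 in Mut over WT turned to -0.11, and Fcer1a lost its calls against WT without any 1 of the libraries compared. The call of Mcpt8 was lost without MPP KO replicate 2 or MPP WT replicate 2 in KO over WT and without either MPP Mut library in Mut over WT, and that of Prss34 in Mut over WT without MPP Mut replicate 1. At TMM scaling Mut cells thus had lower Prg2 and Epx beside higher basophil proteases, while KO cells had lower levels of both than WT. Of 10 genes on the list of primary neutrophil granule genes, Mpo and Elane were lower in KO than in WT (1.24-fold and 1.42-fold). Mpo, Elane and Prtn3 were lower in Mut than in WT (1.13-fold, 1.62-fold and 1.61-fold). Of 14 genes on the list of late neutrophil granule genes, Lyz2 was 2.01-fold lower in KO than in WT (edgeR adjusted p = 0.00182). Camp, S100a8 and S100a9 were lower in Mut than in WT (6.84-fold, 1.95-fold and 2.14-fold). In KO against Mut these 3 and Chil3 were higher (5.50-fold, 1.99-fold, 2.49-fold and 4.31-fold), and Lyz2 was 1.59-fold lower. Among these, the S100a8 and S100a9 calls, those of Elane, Prtn3 and Camp in Mut over WT and that of Lyz2 in KO over WT held under each of the 13 alternatives. Those of Camp, Chil3 and Lyz2 in KO over Mut were lost without any 1 of the libraries compared, and that of Mpo in Mut over WT without MPP Mut replicate 2 or MPP WT replicate 2. Spike-in scaling ended the calls of Mpo, Elane, Mcpt8 and Fcer1a in KO over WT, of Mcpt8 and Fcer1a in Mut over WT and of Cpa3, Ms4a2 and Lyz2 in KO over Mut (adjusted p up to 0.956).

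The genes whose levels ran most like Prg2 over the 12 libraries were ranked by Pearson's r of log2(CPM + 0.5) among 12456 genes. The first 8 outside the set were Ifi30, Sec14l2, Ppm1f, Siglech, Mpeg1, Svip, Il2rb and Pld4, with r from 0.981 to 0.974. Within the set r was 0.974 for Epx, 0.971 for Prg3, 0.942 for Ear6, 0.906 for Ear2, 0.889 for Ear1 and 0.878 for Il5ra. The libraries fall into the 2 populations and pair up by pool, so these values rest mostly on the gap between LSK and MPP and on the order of the LSK groups. Siglech, a lectin of plasmacytoid dendritic cells, was at 4.58 ± 1.55 CPM in LSK KO, 0.558 ± 0.636 in LSK Mut and 0 in LSK WT, and at 35.4 ± 3.92, 20.7 ± 8.12 and 52.7 ± 7.48 CPM in MPP KO, Mut and WT, the same order as Prg2 in both populations. Il2rb, a chain of the interleukin 2 receptor, had that order too, at 5.27 ± 1.77 CPM in LSK KO, 1.32 ± 1.87 in LSK Mut and 0 in LSK WT, and 70.6 ± 3.04, 52.4 ± 16.9 and 111 ± 29.6 CPM in MPP KO, Mut and WT. Sec14l2 shared the LSK order, at 3.202 ± 0.160, 1.24 ± 0.00758 and 0 CPM in KO, Mut and WT, but was highest in KO in MPP, at 22.3 ± 0.330 CPM against 17.0 ± 0.675 in Mut and 11.5 ± 0.741 in WT.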

How the data were processed

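RNA of LSK and MPP cells was amplified and sequenced as 150 bp read pairs with ERCC spike-ins, per the labels and the series' design text. The submitters' processing notes name Trim Galore 0.4.1, TopHat2 2.0.13, HTSeq 0.6.1, Cufflinks and the build mm10, with no role or order. The strand setting and annotation are not given in the sources used here. The deposited tables, 1 per population, hold raw counts per gene symbol (whole numbers, no scaling by the authors) for 24538 genes and 92 spike-ins. The column MD-3-Lin-KO-2 was taken as MPP KO replicate 2, the only library without a column of its own title.

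Counts were fitted with edgeR 4.0.16 (R 4.3.3): filterByExpr by group (minimum count 10, total 15), TMM over genes, a mean per group over the 6 libraries of a population (3 residual degrees of freedom), two-sided quasi-likelihood tests, Benjamini-Hochberg adjustment over all genes. The procedure was tested on simulated data. Alternatives were other scalings (DESeq2 1.42.0 size factors, totals, spike-ins), no filter, the DESeq2 Wald test, 2 groups alone, leaving out a library, and a replicate block. Levels are CPM scaled over all 12 libraries, and fitted differences use the scaling of 1 population. Intervals are exact 95% intervals (Clopper-Pearson) and, with the floors of 3 counts, cover counting error only, since these reads carry no molecular identifiers and are not independent molecules. Positions are from GENCODE M21 (GRCm38), upstream windows from RefSeq (GRCm38.p6).

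The 7 genes and the lists were chosen with earlier results of these data known. Named were all 7 genes, Mpo and Alox15, up to 4 called genes per list and comparison by lowest p, and the 8 genes nearest to Prg2. Other genes were named as list examples after their values were seen.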

Additional observations from a re-analysis of the deposited data

Results flagged for a closer look

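For 4 values the genotypes ran opposite ways in the 2 populations, every library of a group lying on the same side. For KO against WT, Prg2, Epx and the sum of the 7 genes were higher in both LSK KO libraries than in both LSK WT libraries, and lower in both MPP KO libraries than in both MPP WT libraries. Their log2 ratios of mean CPM in MPP were -0.634 for Prg2, -0.578 for Epx and -0.568 for the sum. For Mut against WT, Prg2 was higher in both LSK Mut libraries and lower in both MPP Mut libraries, with a log2 ratio of -1.21 in MPP. The sum is not separate from Prg2, which made up 74.5% of its counts in MPP KO and 77.9% in MPP WT. In MPP alone, libraries did not overlap in 40.3% of all genes for KO against WT and 39.3% for Mut against WT. The share of all genes running opposite ways in both populations was not counted, so the 4 values cannot be called unusual. The LSK values chose the genes, and the difference between the populations was not tested.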

How the results depend on the processing

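Prg2 and Epx kept their direction in MPP under all 13 alternatives in all 3 comparisons. The number of the 7 genes called was 2, 2 and 3 for KO against WT, Mut against WT and KO against Mut. With spike-in scaling, under which all genes had a median of 0.05, -0.59 and 0.65, it was 0 (3 at an unadjusted p below 0.05), 5 and 5. With the DESeq2 Wald test and its own size factors it was 3, 4 and 5, and without the filter 3, 4 and 4. Calls among all genes numbered 47, 29 and 31, against 15, 2297 and 3254 with spike-in scaling, 189, 217 and 195 without the filter, 273, 306 and 273 with DESeq2, and 26, 17 and 21 with the 2 groups alone. Leaving out a library gave 0 to 2, 2 to 2 and 1 to 3 of the 7, and 10 to 41, 15 to 28 and 10 to 34 of all genes. A library left alone in its group was assumed to vary like the others. The log2 difference of Il5ra ran from -1.67 to 0.96 for KO and from -2.11 to 0.51 for Mut against WT, positive without MPP WT replicate 1. Among the list genes, whose alternatives were added after the data were seen, spike-in scaling turned Prss34 to -0.11 in Mut against WT and Mpo to 0.52 in KO against Mut. With the replicate block it was 2, 2 and 3, and 23, 19 and 26 of all genes. In MPP the replicate numbers did not go together between groups (r = -0.03 to 0.003 between their differences over all genes tested). LSK was not checked, and a shared batch was not tested. The main fits took the numbers as names only. Among the list genes the block ended the calls of Fcer1a (adjusted p = 0.0506 in KO and 0.0979 in Mut) and of Mpo and Alox15 in Mut against WT, of Csf2rb2 and Ms4a2 in KO against Mut and of Nkg7 in LSK. The fit of 2 groups alone also ended these, Ms4a2 excepted, and those of Mcpt8 in KO against WT, Camp and Chil3 in KO against Mut and Elane in LSK.

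The log2 ratio of the LSK sums was 5.68 for KO over WT, 1.20 for Mut over WT and 4.48 for KO over Mut. Without Prg2, KO over WT was 3.87, Mut over WT turned to -3.94 and KO over Mut moved to 7.81, since 9 Prg3 counts are then the whole Mut sum and 70 Ear1 counts the whole WT sum. Without Ear1, tried after the data were seen, KO over WT was 11.1 and Mut over WT 6.75. Spike-in scaling gave 6.31, 2.49 and 3.82. Leaving out a library gave 4.71 to 10.2, 0.23 to 5.75 and 4.21 to 4.81. Depth limits the LSK values, where 13 Ear2, 31 Ear6 and 18 Il5ra counts are all that was found.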
